A study of Homo sapiens with 4 samples.

Results

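The MYCN locus was taken as the 1.3 Mb from 15300000 to 16600000 on chromosome 2 (hg19, band 2p24), which holds the genes NBAS, DDX1 and MYCN. Its members are all anchor pairs with the midpoint of at least 1 anchor in that window, 510 of the 720049 pairs listed in the series, and they rest on 12 of 39507 anchors. The data are ChIA-PET libraries of the cohesin subunit SMC1, in which DNA fragments held together by the immunoprecipitated protein are ligated and both ends of each ligated fragment are read as a paired-end tag (PET). An anchor is 1 of the regions that the authors' tables list as ends of pairs, and each pair carries a PET count. The groups were Kelly cells infected with an shBORIS construct, against BORIS (CTCFL), and Kelly cells infected with the control construct shLUC. The cells of both groups were resistant to TAE684, which inhibits the kinase ALK, grew in 1 µM of it, and were infected for 24 h and selected with puromycin for 48 h. Each group had 2 libraries, pooled by the authors into 1 table, so no value carries a replicate error and each test compares 2 pools, not the conditions. The level of BORIS was not analysed here.

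Kelly is a neuroblastoma cell line that carries MYCN in amplified form. MYCN encodes the transcription factor N-Myc, whose amplification marks high-risk neuroblastoma. DDX1, an RNA helicase gene, and NBAS, a gene of Golgi-to-endoplasmic-reticulum transport, lie on the side of the short-arm telomere and are often amplified with it. Cohesin extrudes chromatin loops that tend to stop where CTCF is bound, and BORIS is a germline paralog of CTCF that binds similar DNA.

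No anchor lay at MYCN. The gene spans 16080683 to 16087129, and no anchor was listed between 15793465 and 16414680, a stretch of 621 kb that makes up 47.8% of the window. The nearest anchor on the left ended 287 kb before the MYCN start and the nearest on the right began 328 kb after the gene's end. Widening the gene by 5 kb or 20 kb on both sides added no anchor. SMC1 contacts of the MYCN promoter could therefore not be compared between shBORIS and shLUC, and no PET can be assigned to the gene. Pairs are listed only between anchors, so the tables do not show whether SMC1 or PETs were absent there. Of 39467 stretches between neighbouring anchors in the genome, with a median of 26.2 kb, 463 were at least this long, or 1.17%. On chromosome 2 it ranked 42 of 2834.

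**Figure D1:**
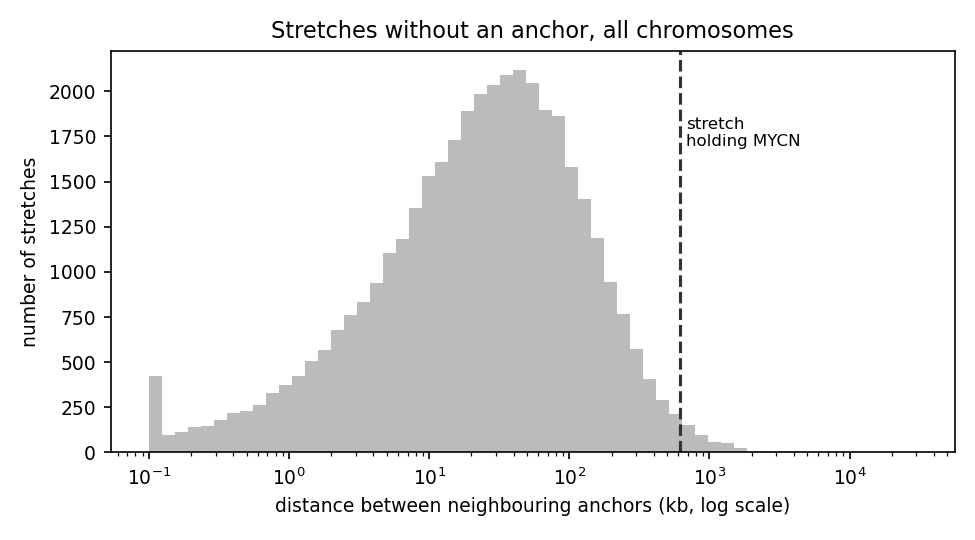
Number of stretches without an anchor (y axis) by their length (x axis, kb, log scale) over all chromosomes, with stretches up to 0.1 kb in the first bar. The dashed line marks the stretch of 621 kb that holds MYCN, in the upper tail of the distribution, where 1.17% of stretches are at least as long.

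Both other genes had an anchor at their start. NBAS runs on the minus strand from 15701454 to 15307032, and its start lay inside the anchor at 15700429-15701965. DDX1 runs on the plus strand from 15731302 to 15771235, and the anchor at 15731330-15732559 began 28 bp after its start. The promoters of the 3 genes are printed to set the gene start without an anchor beside the other two. They are the RefSeq sequences of build GRCh38.p14, from 250 bases before to 50 bases after the start, 5′ to 3′ on the gene's strand. Capitals mark GGGCGG, the box bound by SP1-type factors, and GGCGCG, a core found in E2F-type sites, on either strand. These lie at 15940300-15940599 (MYCN, plus strand), 15591618-15591917 (DDX1, plus strand) and 15561285-15561584 (NBAS, minus strand) of chromosome 2 in GRCh38.p14, a build that is not that of the anchors.
MYCN: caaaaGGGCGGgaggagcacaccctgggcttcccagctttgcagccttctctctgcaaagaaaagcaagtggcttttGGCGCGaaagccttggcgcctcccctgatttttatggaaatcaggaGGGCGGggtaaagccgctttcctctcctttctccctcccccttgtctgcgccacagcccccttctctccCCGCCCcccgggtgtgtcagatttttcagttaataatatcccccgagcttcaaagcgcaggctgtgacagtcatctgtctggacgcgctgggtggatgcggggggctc
DDX1: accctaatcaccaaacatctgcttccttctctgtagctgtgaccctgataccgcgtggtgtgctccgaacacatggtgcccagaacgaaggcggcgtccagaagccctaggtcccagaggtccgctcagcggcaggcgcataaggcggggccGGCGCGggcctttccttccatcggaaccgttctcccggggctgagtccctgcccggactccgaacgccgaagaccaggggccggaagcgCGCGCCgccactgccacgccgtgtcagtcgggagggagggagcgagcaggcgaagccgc
NBAS: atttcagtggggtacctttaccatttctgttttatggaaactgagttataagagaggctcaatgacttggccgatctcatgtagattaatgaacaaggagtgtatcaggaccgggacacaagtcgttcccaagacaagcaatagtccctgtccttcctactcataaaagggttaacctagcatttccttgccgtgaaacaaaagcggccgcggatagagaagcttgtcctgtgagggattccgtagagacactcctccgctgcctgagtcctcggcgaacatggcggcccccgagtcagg

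The MYCN promoter held 3 matches of GGGCGG and 1 of GGCGCG, that of DDX1 2 of GGCGCG and that of NBAS none of either. Of 35116 RefSeq promoters of this length, 45% hold GGGCGG and 28.4% GGCGCG. The CTCF core motif, CACGTG (the E-box bound by Myc proteins), CCAAT and TATAAA had 0 matches on either strand in all 3, and are found in 0.396%, 7.26%, 34.6% and 11.5% of promoters. GC content was 58.7% for MYCN, which is the median of all promoters, 67.0% for DDX1 and 49.7% for NBAS. CpG dinucleotides numbered 14, 31 and 13 in MYCN, DDX1 and NBAS. The gene models of the 2 builds differ in length for all 3 genes. MYCN has 6455 bp in RefSeq and 6447 bp in the hg19 coordinates used here, and DDX1 39234 and 39934 bp. For NBAS the lengths are 782426 and 394423 bp. The printed starts therefore need not be those of the hg19 models or the bases that the anchors touch.

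The 12 anchors are numbered here from low to high coordinate. Anchor 1, at 15299487-15300790, lay beyond the end of NBAS in the hg19 coordinates used here. Whether the longer RefSeq model of NBAS reaches it was not tested. Anchors 2 (15382652-15385158), 3 (15523452-15524624) and 4 (15524831-15526097) lay in the NBAS body and anchor 5 at its start. Anchors 6 (15716645-15718173) and 7 (15728072-15729329) lay between NBAS and DDX1, anchor 8 at the DDX1 start, and anchors 9 (15776582-15778818), 10 (15791108-15791833) and 11 (15792635-15793464) between DDX1 and the stretch without anchors. Anchor 12, at 16414681-16416167, was the only one on the far side of MYCN. All 12 had PETs in both tables. Their median width was 1285.5 bp, against 1172 bp for all anchors. The number of anchors was not unusual, since 42.9% of the 2166 windows of this length with an anchor held fewer.

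Interchromosomal PETs, used here as a measure of coverage, were most frequent at anchors 9 and 12, which lie on either side of MYCN. Anchor 9 carried 47 in shBORIS and 49 in shLUC, more in sum than 97.6% of all anchors. Anchor 12 carried 36 in shBORIS and 30 in shLUC, more in sum than 93.1% of all anchors. Anchors 10 and 11, between anchor 9 and the stretch that holds MYCN, carried few. Anchor 10 had 1 PET in shBORIS and 3 in shLUC, and anchor 11 had 1 PET in shBORIS and 8 in shLUC. Interchromosomal PETs near MYCN were thus not uniformly high. DNA copies and SMC1 binding were not measured separately here, and their parts in these counts were not tested. The contrast held per length, with 42.9 and 44.4 PETs per kb of anchor summed over the tables at anchors 9 and 12, 5.51 and 10.8 at anchors 10 and 11, and a median of 18.7 over all anchors. Among 862 anchors beside a stretch at least as long, anchors 11 and 12 included, the median was 17 PETs in sum. Anchor 11, with 9 in sum, lay below that median. At least as many as at anchor 12 were found at 13 of the 862, a count that includes anchor 12.

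Between NBAS and DDX1 coverage was also high. Anchor 6 had 25 PETs in shBORIS and 27 in shLUC, and anchor 7 had 23 PETs in shBORIS and 28 in shLUC. In sum these exceeded 87.6% and 87.1% of all anchors. At the DDX1 start anchor 8 had 14 PETs in shBORIS and 17 in shLUC. The NBAS start was lower, with 8 PETs in shBORIS and 9 in shLUC at anchor 5, fewer than at most anchors. In the NBAS body, the counts were 13 in shBORIS and 26 in shLUC at anchor 2, 7 and 10 at anchor 3, and 17 and 16 at anchor 4. Anchor 1 had 12 in shBORIS and 16 in shLUC. Only anchors 4 and 12 had more in shBORIS as counted. The median of the 12 was 13.5 PETs in shBORIS and 16.5 in shLUC, against 11 in each table over all anchors.

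**Figure D2:**
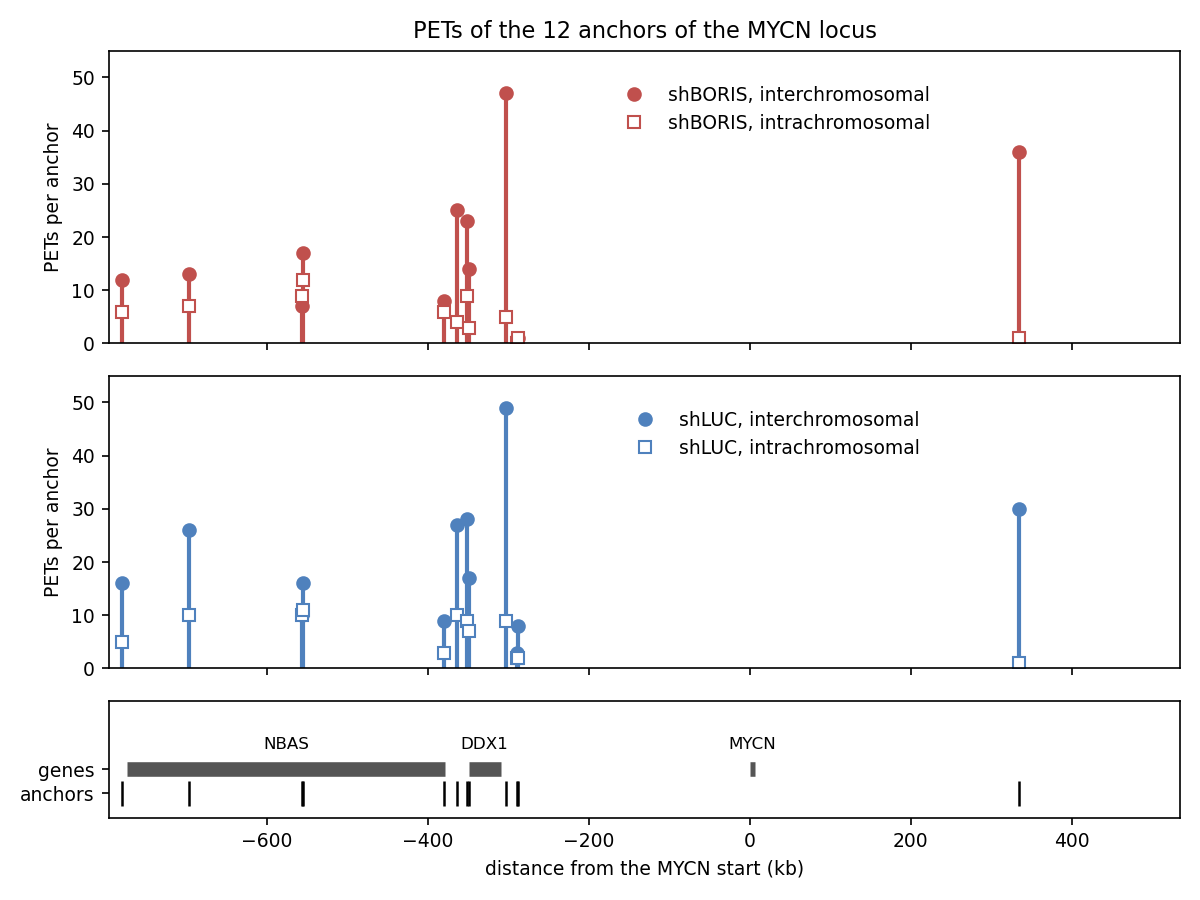
PETs per anchor (y axis) in shBORIS (top) and shLUC (middle) against the distance of the anchor from the MYCN start in kb, with filled circles for interchromosomal and open squares for intrachromosomal PETs. The genes and anchors are drawn at the bottom. The highest interchromosomal counts, 47 and 49, stand at anchor 9, and no anchor lies around MYCN.

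Summed over the locus, interchromosomal PETs numbered 204 in shBORIS and 239 in shLUC. Scaled by the interchromosomal total of each table, 286938 in shBORIS and 288835 in shLUC, the ratio of shBORIS to shLUC was 0.859 (95% interval 0.709 to 1.04). Two-sided Fisher's exact test over 2157 windows of the same length gave an adjusted p of 0.634, and 0.51% of windows were called. The ratio lay below 1 but within the spread of windows, of which those from the 5th to the 95th percentile ran from 0.732 to 1.29. With pairs of at least 2 PETs alone, scaled by the totals of such pairs, the ratio was 0.212. It rested on 2 PETs in shBORIS and 8 in shLUC. By anchor, 0 of 10 locus anchors with at least 10 such PETs passed Fisher's exact test, where 0.014% of 35637 did genome-wide, and 0 had an unadjusted p under 0.05. The closest was anchor 2 in the NBAS body, where shBORIS was at 0.503 of shLUC after scaling (0.237 to 1.02; adjusted p = 0.879 by Fisher's exact test). All intervals and limits are for counting error alone, because each group is 1 pooled table. They also take PETs as independent molecules, which PCR copies are not.

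The partners on other chromosomes were spread out. Of 438 such pairs 433 were seen once, 0 in both tables, and none had more than 2 PETs. The 5 with 2 PETs joined anchor 1 to 176235870-176240875 on chromosome 5, anchor 9 to 41771098-41772736 on chromosome 17, anchor 11 to 8086619-8100139 on chromosome 10, and anchor 12 to 71605134-71612205 on chromosome 17, each in shLUC alone, and anchor 12 to 86983701-86985069 on chromosome 10 in shBORIS alone. For 20 of 22 partner chromosomes the locus share's interval held the share of the other chromosome 2 anchors. Chromosome 17 took 12% (9.09 to 15.4) of the locus PETs, against 8.20% for the other chromosome 2 anchors. Chromosome X took 0 of the locus PETs (0 to 0.829%), against 1.08%. These intervals are not adjusted for the 22 comparisons.

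Intrachromosomal PETs of the locus numbered 44 in shBORIS and 57 in shLUC, on 72 pairs of which 62 were seen once. Scaled by the intrachromosomal totals, 163041 in shBORIS and 146140 in shLUC, the ratio was 0.692 (0.456 to 1.04). It did not pass Fisher's exact test over 1895 windows (adjusted p = 0.464, unadjusted p = 0.0726), where 1.42% were called. With interchromosomal totals as the scale, which adds 0.17 on the log2 scale to every intrachromosomal ratio, it was 0.777. Scaled by the locus' own interchromosomal PETs the ratio was 0.904. Of all windows 16.4% had a lower intrachromosomal ratio and 17.9% a lower interchromosomal one. The share of intrachromosomal PETs among those with an end in the locus was 17.7% (13.2 to 23.1) in shBORIS and 19.3% (14.9 to 24.2) in shLUC, close to the median window, with 19.8% in shBORIS and 19.1% in shLUC.

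Pairs with both ends in the locus held 19 PETs on 9 pairs in shBORIS and 22 PETs on 13 pairs in shLUC, and 41 summed over the tables. Pairs between anchors of NBAS held 13 PETs in shBORIS and 10 in shLUC, of which 8 in shBORIS and 6 in shLUC were on 1 pair. The pair between the 2 anchors next to the DDX1 start had 2 PETs in each table, and the pair between DDX1 and NBAS 0 in shBORIS and 1 in shLUC.

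The strongest pair joined anchors 3 and 4 in the NBAS body, 1.43 kb apart by their midpoints, with 8 PETs in shBORIS and 6 in shLUC. It was the only locus pair with enough PETs, at least 10 summed, to be tested. After scaling shBORIS stood at 1.2 times shLUC (0.364 to 4.18; adjusted p = 1 by Fisher's exact test). Genome-wide 0.0506% of 3951 pairs passed. The interval covers a lower as well as a several-fold higher count in shBORIS.

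Next came a contact of 142 kb within NBAS, from anchor 2 to anchor 4, with 2 PETs in shBORIS and 3 in shLUC. Anchors 7 and 8, 3.24 kb apart just before and at the DDX1 start, shared 2 PETs in each table. Anchor 2 also contacted the NBAS start at anchor 5 over 317 kb, with 2 PETs in shBORIS and 0 in shLUC. Anchors 6 and 7 shared 0 PETs in shBORIS and 2 in shLUC. All the other 14 pairs inside the locus had 1 PET in 1 table, and at such counts no difference was detectable.

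**Figure D3:**
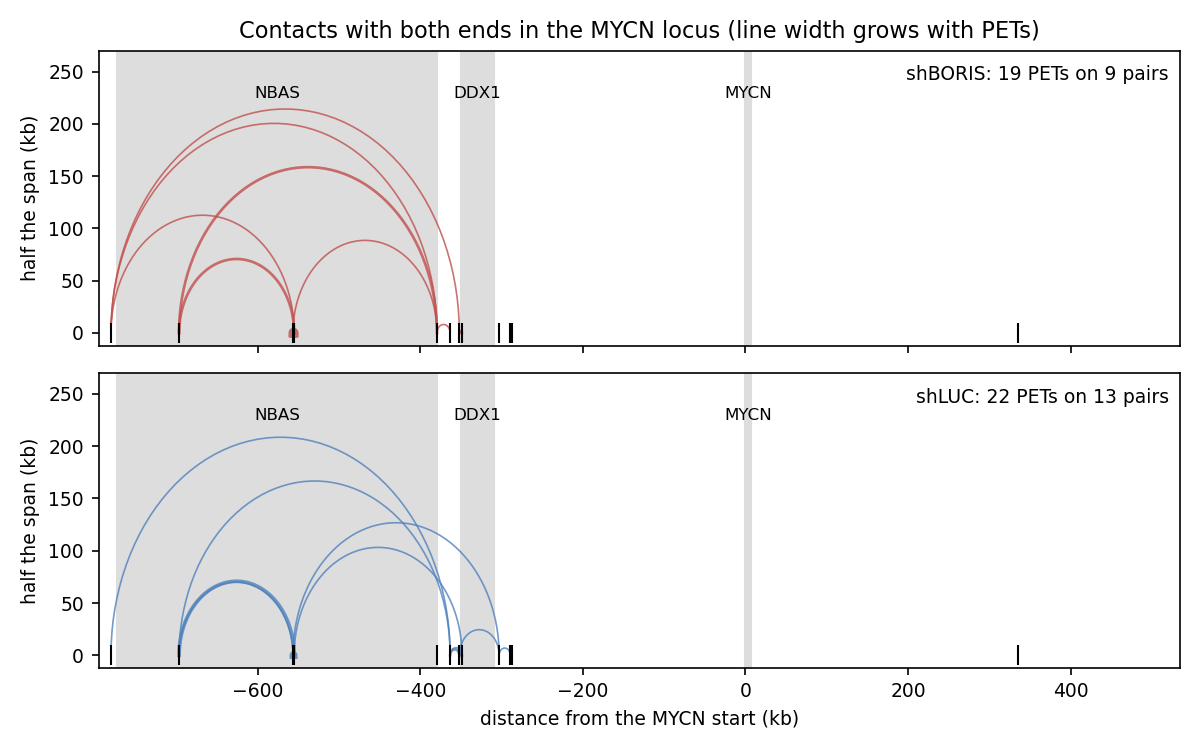
Pairs with both ends in the locus, drawn as arcs between anchors (black ticks) for shBORIS (top, 19 PETs on 9 pairs) and shLUC (bottom, 22 PETs on 13 pairs), with the distance from the MYCN start in kb on the x axis and the span divided by 2, in kb, on the y axis. All arcs lie left of MYCN, and none reaches anchor 12.

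By the rule of at least 3 PETs and a Bayes probability, scored by the authors, of at least 0.9, 1 interaction of the locus was called in shBORIS and 3 in shLUC. That is 3.13% of the 32 locus pairs listed in shBORIS, where 14.1% of all intrachromosomal pairs were called, and 6.67% of the 45 listed in shLUC, where 12.9% were called. The contact between anchors 3 and 4 was called in both tables. Called in shLUC alone were the contact between anchors 2 and 4 (Bayes probability 0.892 in shBORIS, with 2 PETs, and 0.981 in shLUC, with 3) and a contact of 943 kb from anchor 6 to 14771864-14776383. The contact of anchor 6 had 0 PETs in shBORIS and 3 in shLUC, a difference that was not tested at so low a count. With a minimum of 5 PETs 1 interaction was called in each table, and with a minimum of 2 PETs 4 in shBORIS and 6 in shLUC.

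By single anchor, intrachromosomal PETs were highest in the NBAS body, with 12 PETs seen for shBORIS and 11 for shLUC at anchor 4 and 9 in shBORIS and 10 in shLUC at anchor 3, including the 8 in shBORIS and 6 in shLUC of the pair between them. The NBAS start had 6 in shBORIS and 3 in shLUC. The DDX1 start had 3 in shBORIS and 7 in shLUC. Anchor 6 had 4 in shBORIS and 10 in shLUC, the lowest of the 8 locus anchors with at least 10 such PETs at 0.359 times shLUC (0.0821 to 1.24; adjusted p = 0.865 by Fisher's exact test). None of the 8 tested locus anchors passed Fisher's exact test and 0 had an unadjusted p under 0.05, while 0.0204% of 19623 anchors passed genome-wide. The ratio was below 1 at 7 of these 8 anchors, and at 5 of 8 with interchromosomal totals as the scale. Its median was 0.717, against 1.01 over all tested anchors. These anchors share PETs with each other, and every interval included 1.

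Over all anchors within 5 kb of a gene, the 4 of NBAS had 21 PETs in shBORIS and 24 in shLUC. The scaled ratio was 0.784 (0.415 to 1.47), and 1.19 when scaled by the interchromosomal PETs of the same anchors, so its direction depends on the scale. The 2 of DDX1 had 10 in shBORIS and 14 in shLUC. Their ratio was 0.640 (0.254 to 1.55), 0.869 by the same scaling, and 0.384 (0.0641 to 1.68) with the anchor in the gene body alone. Their interchromosomal ratios were 0.743 (0.494 to 1.11) for NBAS and 0.828 (0.521 to 1.31) for DDX1. Neither gene's contacts differed between shBORIS and shLUC beyond counting error, and both intervals would hold a loss of more than 1.5-fold as well as a gain.

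Shares by span depend on the distances between the anchors present, which were not matched here between the locus and all pairs. By span, PETs of 20 to 100 kb made up 0.990% of the intrachromosomal PETs of the locus, against 29.1% over all pairs. They numbered 0 in shBORIS and 1 in shLUC. Those of 100 to 500 kb made up 21.8%, against 33.1% over all pairs, and those under 20 kb 23.8%, against 19.2%. The longer classes took larger shares in the locus, with 13.9% at 500 kb to 2 Mb, against 6.52% over all pairs. PETs over 2 Mb made up 39.6%, against 12.1% over all pairs, with 17 in shBORIS and 23 in shLUC. Under 20 kb there were 11 in shBORIS and 13 in shLUC, at 100 to 500 kb 9 in shBORIS and 13 in shLUC, and at 500 kb to 2 Mb 7 in each table. The scaled ratios of the classes with more than 1 PET ran from 0.621 (0.234 to 1.57) at 100 to 500 kb to 0.896 (0.268 to 2.99) at 500 kb to 2 Mb, with every interval including 1. On the scale of interchromosomal totals that of 500 kb to 2 Mb was 1.01, on the other side of 1.

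To set contacts beside coverage, the PETs expected for each pair of anchors were computed from the interchromosomal PETs of both anchors and the genome-wide rate at their span. Inside the locus 41 PETs were observed and 41.1 expected. Anchors 3 and 4 in the NBAS body carried 3.24 (1.95 to 5.06) and 2.56 (1.62 to 3.84) times the expected intrachromosomal PETs, higher than 98.3% and 95% of the 24774 anchors with at least 5 expected. Both values rest on the pair of 1.43 kb between them, which held 14 PETs where 2.49 were expected. Without it anchor 3 had 5 PETs against 3.38 expected, a ratio of 1.48 (0.481 to 3.46), and anchor 4 had 9 against 6.5, a ratio of 1.38 (0.633 to 2.63), so that neither differed from the expected number beyond counting error. The locus without that pair had 27 PETs against 38.6 expected, a ratio of 0.699 (0.461 to 1.02). That pair was chosen as the strongest of the locus, with more PETs than expected, so leaving it out can only lower these ratios. Anchor 2 carried 2.15 (1.26 to 3.45) times and the NBAS start 1.49 (0.682 to 2.83) times.

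From the far side of the NBAS start to the stretch that holds MYCN the observed PETs were below the expected ones at 5 of 6 anchors. The values were 0.831 (0.454 to 1.39) at anchor 6, 0.809 (0.479 to 1.28) at anchor 7, 0.613 (0.294 to 1.13) at the DDX1 start and 0.562 (0.307 to 0.942) at anchor 9. Counting only contacts under 2 Mb, anchor 9 had 0 PETs in shBORIS and 3 in shLUC where 17.3 were expected in sum, a ratio of 0.173 (0.0358 to 0.507) that was lower at 1.67% of the 21485 anchors with at least 5 expected. The locus anchor with the most interchromosomal PETs thus had few near contacts relative to the number expected. The expected number of an anchor rises with its own interchromosomal PETs, so a high count of these lowers the ratio. How far this enters the values here and at anchor 12 was not tested. Anchors 10 and 11 had 2 and 3 PETs against 1.54 and 3.20 expected, too few to place.

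Anchor 12, alone beyond MYCN, had 1 intrachromosomal PET in shBORIS and 1 in shLUC, to anchors 11.1 and 16.6 Mb away on chromosome 2. Expected were 7.40 in sum, a ratio of 0.270 (0.0327 to 0.976). Its intrachromosomal share was 2.94% (0.358 to 10.2). The 2733 anchors with at least as many interchromosomal PETs, anchor 12 included, had a median share of 38.2%. Of these anchors 8 had a share as low or lower, 3 of them on assembled chromosomes, and both counts include anchor 12. Anchors beside equally long stretches had a median share of 13.3%, which is also below the 30.5% of all anchors. The part of isolation in the value of anchor 12 was not tested.

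**Figure D4:**
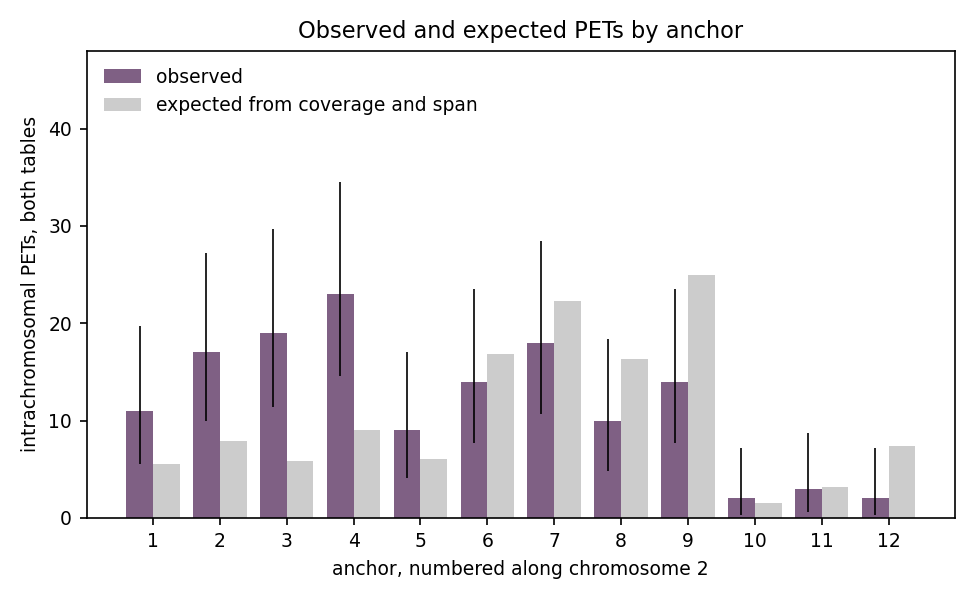
Intrachromosomal PETs of each anchor summed over shBORIS and shLUC (y axis), observed (dark bars, with exact 95% Poisson intervals) beside those expected from interchromosomal coverage and span (light bars), for the 12 anchors in order along chromosome 2 (x axis). Anchors 1 to 5 exceed the expected value and anchors 6 to 9 and 12 lie below it.

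Within 2 Mb, all PETs listed to the rest of chromosome 2 ran to anchors upstream of the window. Toward downstream anchors 0 were seen where 2.81 were expected in sum, a ratio of 0 (0 to 1.31). A lack on that side is thus within counting error. Toward anchors upstream of the window 8 PETs in shBORIS and 12 in shLUC were seen, where 2.98 and 3.68 were expected, a ratio of 3.01 (1.84 to 4.64) in sum. These lay on 15 pairs, whose upstream ends were 5 anchors between 14771864 and 15093612. Across the stretch that holds MYCN no contact under 2 Mb was listed. Between anchors 1 to 11 and all anchors on its other side within 2 Mb, 0 PETs were seen in shBORIS and 0 in shLUC, and 2.09 were expected in sum. The exact interval of this count of 0 reaches 1.77 times the expected number, so a depletion across MYCN was not detectable at this depth. The same holds from anchor 12 to its downstream neighbours, with 0 PETs and 1.39 expected. Beyond 2 Mb on chromosome 2 the locus had 17 PETs in shBORIS and 23 in shLUC, where 16 and 19.1 were expected.

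Outside the window, 2 pairs reached 3 PETs in sum. One was the contact of 943 kb described above, and the other joined anchor 7, just before DDX1, to 13186388-13187335 over 2542 kb, with 2 PETs in shBORIS and 1 in shLUC. Pairs with 2 PETs joined anchor 1 to 14782313-14783365 in shBORIS alone and to 15092018-15093612 in shLUC alone, and anchor 7 to 15043414-15044715 with 1 PET in each table.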

How the data were processed

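SMC1 ChIA-PET libraries of resistant Kelly cells, 2 with shBORIS and 2 with shLUC, were analysed. The submitters' processing notes name cutadapt 1.8, Bowtie and the build hg19. How anchors were defined is not given in the sources used here. For each group the authors deposited a single table. The PET count per pair is unnormalized, per the file headers. The hypergeometric p-value is the authors' and was not used here. The Bayes probability is also named in the shLUC header and was taken as a fraction from 0 to 1. Since the deposited shBORIS table lacks a header, its columns were taken to follow those of shLUC. The tables hold 449979 PETs for shBORIS and 434975 for shLUC.

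Pairs, anchors (at least 10 PETs summed) and windows tiling the genome in phase with the locus were compared with two-sided Fisher's exact tests on the whole tables, with Benjamini-Hochberg adjustment at 0.05 (SciPy 1.17.1, pandas 2.3.3). Scaled ratios divide shBORIS by shLUC after division by table totals, with exact Clopper-Pearson intervals at 95%. Where an alternative for the locus ratios drops pairs by PET count or span, the totals are those of the pairs kept. Expected PETs use 15 span classes. Their intervals are exact Poisson. Scripts were tested on simulated data. The rule for naming took anchors within 5 kb of the 3 genes, the 10 locus anchors with the most PETs of each kind, the 20 pairs with the most PETs (tied single-PET pairs are given as counts), pairs between the genes, pairs past the test, the 5 smallest p in each direction and partners with at least 3 PETs. Anchor 10 falls outside the rule and was added with its values known. The members and lists were chosen with earlier results of these data known. The comparisons with expected PETs (also without the strongest pair), of shares and of stretch lengths were added after seeing the data. Gene coordinates are of hg19, and positions were not converted between builds.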

Additional observations from a re-analysis of the deposited data

How the results depend on the processing

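The ratio of intrachromosomal PETs of the locus stayed below 1 and short of the threshold in the 9 alternatives run, from 0.624 without the anchor with the most such PETs to 0.904 with the locus' own interchromosomal PETs as the scale. That of interchromosomal PETs did so in 3, from 0.212 with pairs of at least 2 PETs, where 2 PETs in shBORIS and 8 in shLUC remain, to 0.832. The counts of pairs and anchors past the test stayed at 0 by Fisher's exact test and, for the pair, with a negative binomial dispersion of 0.1. Without the pair or the anchor with the most intrachromosomal PETs Fisher's exact test gave the locus an unadjusted p of 0.0408 and 0.0413 (adjusted p = 0.392 and 0.395). For interchromosomal PETs scaled to all PETs Fisher's exact test gave a ratio of 0.825 (0.681 to 0.999), an unadjusted p of 0.0458 and an adjusted p of 0.366. The span and gene ratios stayed inside their main intervals, with the changes of side for NBAS and for 500 kb to 2 Mb given above; the cause was not tested. Called interactions depend on the minimum. With at least 5 PETs there were 1 in shBORIS and 1 in shLUC, with 0 in shLUC alone. With at least 2 PETs there were 4 in shBORIS and 6 in shLUC, with 3 in shBORIS alone and 5 in shLUC alone. Where 1 PET elsewhere sufficed for sharing, 1 was in shLUC alone. Of the 50 alternatives, 7 moved a count of called interactions and none ended or made a call of a test.

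No paired analysis was possible because the authors' tables merge both libraries of a group. A replicate block or a left-out library could not be run. Contacts of MYCN anchors gave no value under any width, and a minimum of 20 PETs or the removal of pairs under 20 kb left no locus pair to test. With 248 PETs in shBORIS and 296 in shLUC, changes of under about the width of the printed intervals are not detectable.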
